A study of Saccharomyces cerevisiae with 6 samples.

Results

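Aminoacyl-tRNA synthetases join each amino acid to its own tRNA, so that the ribosome receives the residue that a codon calls for. Budding yeast carries separate nuclear genes for most of its cytosolic and mitochondrial enzymes, while a few genes encode the enzyme of both compartments. The kinase Gcn2 senses tRNAs that were left uncharged and raises translation of the transcription factor Gcn4, a regulator of amino acid synthesis genes. The 33 genes described here were listed by name, with no threshold on a measured value, and they are 33 of the 5365 genes that the array annotation names. Of these, 20 are cytosolic, namely 19 genes of synthetases or their subunits and the cofactor gene ARC1, and 13 are mitochondrial.

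The array study compared the budding yeast Saccharomyces cerevisiae, strain S288C, after and before exposure to chloroacetaldehyde, a reactive aldehyde that attacks bases of nucleic acids and thiol groups. Cells in rich glucose medium at 25 °C received 25 ppm of the compound at an optical density of 1 and were collected after 2 h, and their polyadenylated RNA carried the dye Cy5. RNA of cells at the same optical density before the addition carried Cy3, and 3 independent biological samples gave 3 hybridizations, each scanned at high and low laser power. Whether each had its own culture before exposure is not stated; if they shared that RNA, the SDs and p-values below leave out its variation, and its errors would recur on every array. The labels state no genotype beyond the strain name, and the ratios hold no level against which the strain could be checked.

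Each value is a log2 ratio of exposed over unexposed cells, the mean of the high and low scan of a hybridization where both gave a value. Neither the log base nor the direction of the ratio is stated in the labels. Base 2 was assumed, and exposed over unexposed is the likely direction, from the order of the channels, so all signs would turn if the ratios ran the other way. Dye order was the same on every array and the exposed cells had grown for 2 h longer, so dye and growth cannot be told apart from exposure. In these bulk ratios fewer cells with a transcript and less of it per cell cannot be told apart either. Hybridizations are called replicates 1, 2 and 3, errors of means are SDs over them, and the small number of arrays limits the precision.

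None of the 26 member transcripts tested, 20 cytosolic and 6 mitochondrial, passed for a difference between exposed and unexposed cells. For most of these 26 the confidence interval left out changes beyond 2-fold. The other 7 members, all mitochondrial, lacked a value on at least 1 hybridization and were not tested. Among the 26 members with a value on all 3 hybridizations, 0 had an adjusted p under 0.05 (limma with Benjamini-Hochberg adjustment over 3642 genes), beside 2 genes or 0.0549% of all genes tested, and the members' adjusted p ran from 0.804 to 0.986. At an unadjusted p under 0.05 there was 1 member, the valyl-tRNA synthetase gene VAS1, against 6.15% of all genes tested. Member means lay between -0.57 for VAS1 and 0.27 for the glycyl-tRNA synthetase gene GRS1. For 24 of the 26 the 95% confidence interval of the mean, taken gene by gene, lay inside a log2 ratio of 1, that is 2-fold, to either side of 0, as it did for 82.7% of all genes tested. The 2 exceptions were VAS1 (-1.12 to -0.02) and the mitochondrial lysyl-tRNA synthetase gene MSK1 (-1.10 to 0.29).

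Small negative means were common in the cytosolic set. Of its 20 members 18 had a mean below 0, beside 55.2% of all genes tested, and the median of the means was -0.15 against -0.04 for all genes tested. Of the cytosolic members 7 were lower on every hybridization (16.1% of all genes tested were) and 1 was higher on every hybridization (11.5% were), and the other 12 changed sign between hybridizations. The count fell most without replicate 1, when 12 of 20 means lay below 0, beside 51.5% of all genes, and the cytosolic median was -0.07. Without replicate 2 it was 17 of 20 (57.0% of all genes), and without replicate 3 it was 15 of 20 (55.3%). On the single hybridizations 16, 10 and 16 of the 20 members lay below 0, with medians of -0.28, 0.01 and -0.20. Over all genes tested the medians were -0.09, -0.01 and -0.02, so the lower position of the cytosolic set appeared on replicates 1 and 3 and not on replicate 2.

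**Figure D1:**
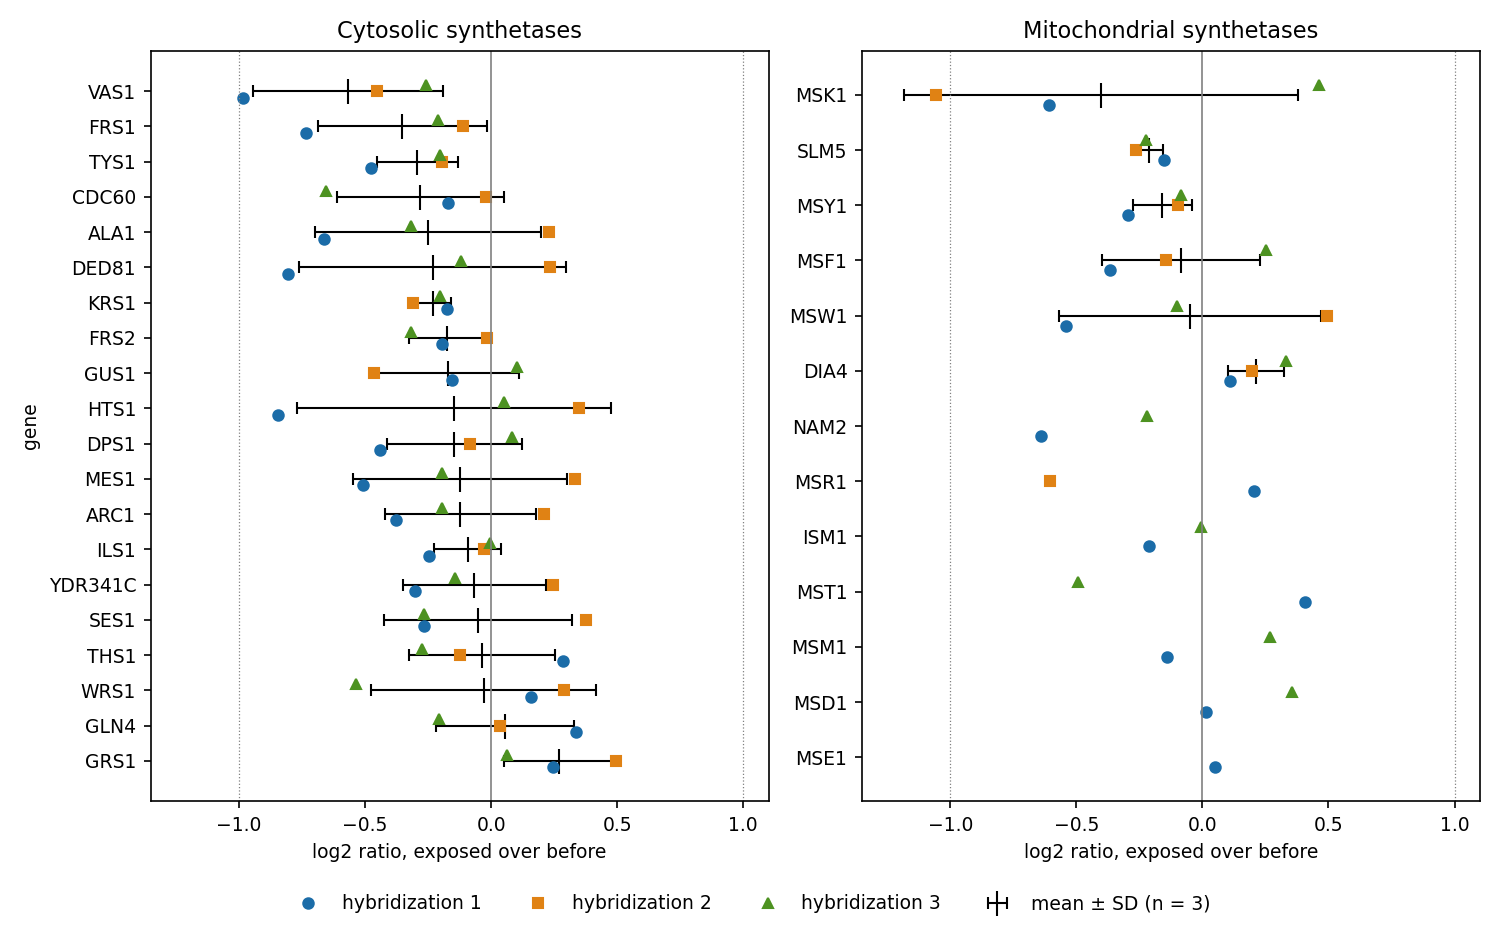
Log2 ratios of exposed over unexposed cells (x axis) for each synthetase gene (y axis), with coloured symbols for the 3 hybridizations and black bars for the mean ± SD where all 3 gave a value; dotted lines mark a log2 ratio of 1 to either side of 0. VAS1 has the lowest cytosolic mean at -0.57 and GRS1 the highest at 0.27, and 7 mitochondrial genes lack a value on at least 1 hybridization.

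VAS1, which encodes both the cytosolic and the mitochondrial valyl-tRNA synthetase, had -0.99, -0.45 and -0.26 on replicates 1, 2 and 3. Its mean was -0.57 ± 0.38 (SD, n = 3), or 1.48-fold lower, and it did not pass (limma, adjusted p = 0.804). All 3 of its values were negative, with the lowest on replicate 1. The mean was -0.36 without replicate 1, and -0.29 after subtraction of the median over spots with neighbouring numbers, a setting chosen after seeing the data. The other genes listed here as serving both compartments went different ways.

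GRS1, whose product charges glycine tRNAs of the cytosol and the mitochondrion, had 0.25, 0.49 and 0.06. It was the cytosolic member higher on every hybridization, with a mean of 0.27 ± 0.22, a difference little larger than its spread (limma, adjusted p = 0.897). The mean was 0.16 without replicate 2 and 0.07 after subtraction of the median over neighbouring spots. The alanyl-tRNA synthetase gene ALA1 had -0.66, 0.23 and -0.32. HTS1, the gene of the histidyl-tRNA synthetase, had -0.84, 0.35 and 0.05, the widest spread of the cytosolic set with an SD of 0.62. Replicate 1 was the lowest for ALA1 and HTS1 and replicate 2 the highest, and neither differed from 0 beyond that spread.

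Phenylalanyl-tRNA synthetase is built from 2 kinds of subunit, and the genes of both were below 0 throughout. FRS1, the gene of the beta subunit, had -0.73, -0.11 and -0.21. FRS2, the gene of the alpha subunit, had -0.20, -0.02 and -0.32. Their means were -0.35 ± 0.34 and -0.18 ± 0.15, without a call for either. The tyrosyl-tRNA synthetase gene TYS1 behaved alike on its 3 arrays, with -0.48, -0.19 and -0.20 and a mean of -0.29 ± 0.16 (limma, adjusted p = 0.889).

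KRS1, the gene of the cytosolic lysyl-tRNA synthetase, was the steadiest cytosolic member, with -0.18, -0.31 and -0.20 and an SD of 0.07. Its mean of -0.23 stood clear of its own SD, but the test also takes in the spread shared across genes, which gave an interval of -0.73 to 0.27 and an adjusted p of 0.924 (limma). The leucyl-tRNA synthetase gene CDC60 was also below 0 on every array, at -0.17, -0.02 and -0.65, with only replicate 3 far from 0. ILS1, which encodes the isoleucyl-tRNA synthetase, had -0.25, -0.03 and -0.0037, so replicates 2 and 3 lay close to 0. Its sign there depended on the scan, with -0.23 at high and 0.17 at low power on replicate 2, and 0.02 and -0.03 on replicate 3. KRS1, CDC60 and ILS1, with VAS1, FRS1, FRS2 and TYS1, are the 7 cytosolic members that were lower on every hybridization.

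Methionyl- and glutamyl-tRNA synthetases bind Arc1, a tRNA-binding cofactor that holds them in a complex in the cytosol. The 3 genes of that complex did not move together. MES1, for the methionine enzyme, had -0.51, 0.33 and -0.19. ARC1 followed the same order at -0.38, 0.21 and -0.19. GUS1, for the glutamate enzyme, had its lowest value where the others had their highest, with -0.16, -0.46 and 0.10. Their means ranged from -0.17 for GUS1 to -0.12 for ARC1, smaller than the SD of each.

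Asparagine, aspartate, serine and threonine are charged by class II enzymes, which share a catalytic fold that differs from that of class I. DED81, for asparagine, had -0.81, 0.23 and -0.12, so its mean of -0.23 rested on replicate 1. The aspartate gene DPS1 had -0.44, -0.08 and 0.08. SES1, for serine, had -0.27, 0.38 and -0.27, with replicates 1 and 3 alike and replicate 2 on the other side of 0. THS1, for threonine, went the other way on replicate 1, with 0.29, -0.12 and -0.28.

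Glutamine, tryptophan and arginine are charged by class I enzymes in this yeast. GLN4, the glutaminyl-tRNA synthetase gene, had 0.34, 0.04 and -0.21, and with GRS1 it was the other cytosolic member with a positive mean (0.06 ± 0.27). WRS1, for tryptophan, had 0.16, 0.29 and -0.54. The arginine gene YDR341C had -0.30, 0.25 and -0.14. None of these kept its sign on all hybridizations. By catalytic class the medians were -0.12 over 9 cytosolic class I genes and -0.16 over 10 class II genes, with 8 and 9 of them below 0. On replicates 1, 2 and 3 the class I medians were -0.25, -0.02 and -0.20 and the class II medians -0.35, 0.11 and -0.21, so class I was higher on replicate 1 and lower on replicate 2. The difference was not tested.

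The order of the cytosolic genes was not repeated from array to array. Across the 20 genes Pearson's r was 0.10 for replicates 1 and 2, -0.15 for 1 and 3, and -0.02 for 2 and 3, given as a description because the genes share arrays and normalization. Over all 3642 genes tested the same pairs of arrays gave 0.21, -0.05 and 0.07. Their SDs were nonetheless smaller than usual: the median SD was 0.29, against 0.38 for all genes tested.

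Mitochondrial synthetases had deposited ratios less often than the cytosolic ones. All 20 cytosolic genes had a value on every hybridization, against 6 of 13 mitochondrial genes and 67.9% of all 5365 genes. In the high-power scans all 13 mitochondrial genes had a ratio on replicate 1, 7 on replicate 2 and 10 on replicate 3. In the low-power scans the numbers were 9, 2 and 3, and for the 20 cytosolic genes they were 19, 13 and 17. Spot brightness was not analysed here, so whether the mitochondrial spots were dimmer was not tested. The 6 mitochondrial genes on all 3 hybridizations therefore do not stand for all 13.

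**Figure D2:**
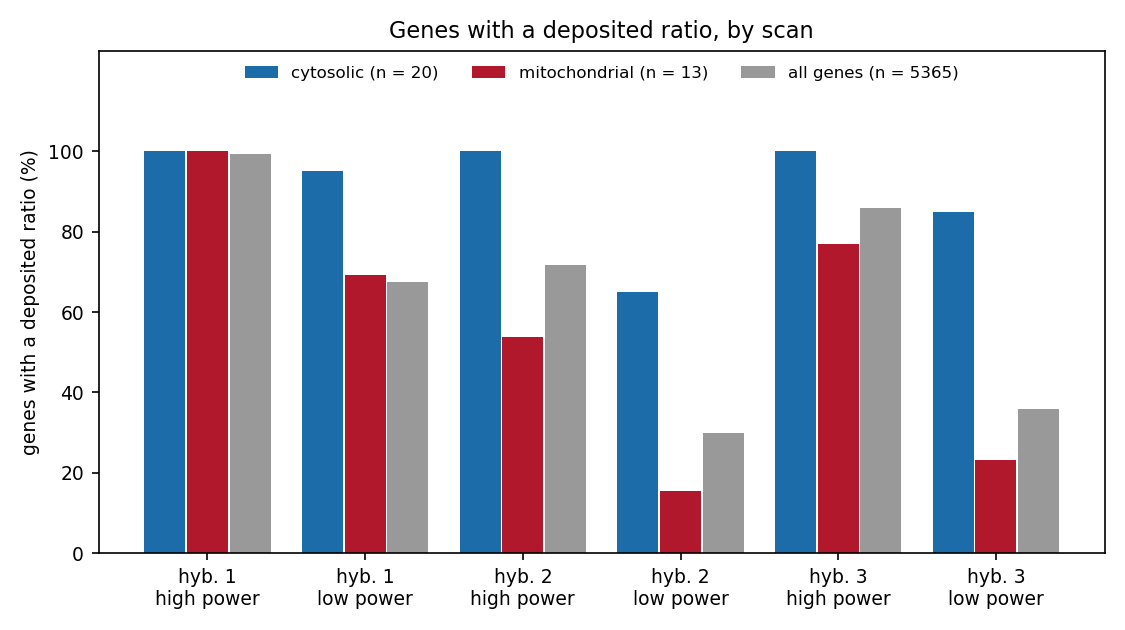
Share of genes with a deposited ratio (y axis, percent) in each of the 6 scans (x axis) for the 20 cytosolic synthetase genes, the 13 mitochondrial ones and all 5365 named genes. Cytosolic genes stay at 65.0% or above, while mitochondrial genes drop to 15.4% in the low-power scan of hybridization 2, where all genes stand at 30.0%.

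Among the mitochondrial genes measured on every hybridization, DIA4, for serine, was the single one above 0 throughout, with 0.11, 0.20 and 0.33 and a mean of 0.21 ± 0.11. SLM5, for asparagine, was below 0 on each, with -0.15, -0.26 and -0.22 and a mean of -0.21 ± 0.06. MSY1, for tyrosine, was below 0 as well at -0.29, -0.10 and -0.08, its replicate 3 coming from the low-power scan alone. None of the 3 passed (limma, adjusted p from 0.928 to 0.940). The small SD of SLM5 hides a difference between scans, since its replicate 1 read -0.46 at high and 0.16 at low power.

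MSK1, for lysine, varied most of all members, with -0.61, -1.06 and 0.46, so its mean of -0.40 ± 0.78 lay well within its spread. Without replicate 3 its mean was -0.83 over the remaining hybridizations, which did not pass after adjustment either. The tryptophan gene MSW1 had -0.54, 0.49 and -0.10. MSF1, for phenylalanine, had -0.36, -0.15 and 0.25. These 3 genes took both signs, and the highest array was replicate 3 for MSK1 and MSF1 but replicate 2 for MSW1.

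The other 7 mitochondrial genes had no mean over all hybridizations and were not tested. NAM2, whose leucyl-tRNA synthetase also takes part in splicing mitochondrial introns, had -0.64 on replicate 1 and -0.22 on replicate 3. ISM1, for isoleucine, had -0.21 and -0.0048 on the same arrays. MST1, for threonine, had 0.41 and -0.49 there, opposite in sign. The methionine gene MSM1 had -0.14 and 0.27, and the aspartate gene MSD1 had 0.01 and 0.35. MSR1, for arginine, had 0.21 on replicate 1 and -0.60 on replicate 2. MSE1, for glutamate, had a value on replicate 1 alone, 0.05. That 0.05 averaged -0.23 at high and 0.33 at low power, and the 0.01 of MSD1 likewise averaged -0.29 and 0.32. Over the 13 scan pairs of mitochondrial genes the median difference between scans was 0.26, against 0.11 over 49 pairs of cytosolic genes and 0.12 over all genes.

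Set against each other, the classes did not differ beyond the spread between hybridizations. The median over the 20 cytosolic genes minus that over the 6 mitochondrial genes was 0.04, 0.13 and -0.29 on replicates 1, 2 and 3, a mean of -0.04 ± 0.22 (SD, n = 3). Mitochondrial medians were -0.33, -0.12 and 0.08, and 5 of the 6 genes had a mean below 0 (55.2% of all genes tested), with 2 lower (16.1%) and 1 higher (11.5%) on every hybridization. Without replicate 1, 3 of the 6 means were below 0. The median of the mitochondrial means was -0.12, and the cytosolic median of means minus this was -0.02. No test was made over members, which are not replicates, and an exact sign-flip test over 3 hybridizations cannot go below p = 0.25. With every member that had a value on a hybridization (13, 7 and 11 mitochondrial genes, a setting chosen after seeing the data) the differences were -0.13, 0.15 and -0.20. The sign on replicate 1 thus depended on which mitochondrial genes were taken.

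**Figure D3:**
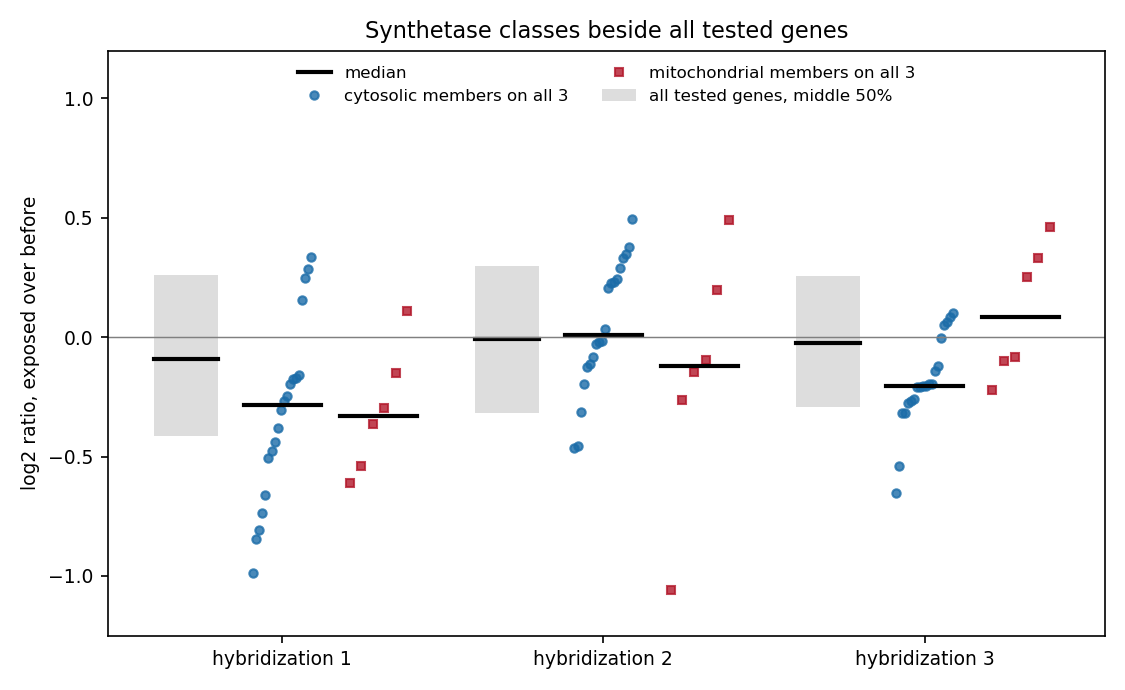
Log2 ratios of exposed over unexposed cells (y axis) on each hybridization (x axis), with a grey bar for the middle 50% of the 3642 genes tested, blue circles for the 20 cytosolic genes, red squares for the 6 mitochondrial genes with a value on all 3, and a black line for each median. The cytosolic median lies below that of all genes on hybridizations 1 and 3 (-0.28 and -0.20), and the mitochondrial median moves from -0.33 to 0.08.

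For 13 amino acids the members include a separate enzyme for each compartment, which makes 14 gene pairs because phenylalanine has 2 cytosolic genes. A value on all 3 hybridizations was available for both genes of 7 pairs. In 1 of these the cytosolic gene was the lower on every hybridization: TYS1 minus MSY1 was -0.18, -0.10 and -0.12, a mean of -0.13 ± 0.04. That small SD hides unlike scans. On replicate 1 TYS1 was read at high power alone (-0.48), while MSY1 read -0.40 at high and -0.19 at low power. On replicate 3 TYS1 was read at high power alone and MSY1 at low power alone. In 0 pairs was the cytosolic gene the higher throughout. The mean difference exceeded its own SD in 2 of the 7 pairs, the tyrosine pair and FRS1 minus MSF1 (-0.27 ± 0.26), which were named for that after their values were seen. For the phenylalanine pair the excess was slight and rested on averaged scans. MSF1 read -0.46 at high and 0.17 at low power on replicate 2, and 0.46 and 0.05 on replicate 3.

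Serine and lysine show how the other pairs varied. SES1 minus DIA4 was -0.37, 0.18 and -0.60, and KRS1 minus MSK1 was 0.43, 0.75 and -0.66. The steady values of KRS1 mean that the spread of the lysine pair came from MSK1. For arginine, YDR341C minus MSR1 was -0.51 on replicate 1 and 0.85 on replicate 2. YDR341C and MSR1 are duplicate genes, as are GRS1 and GRS2, and a cDNA spot for either copy could bind RNA of the other, which was not tested.

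**Figure D4:**
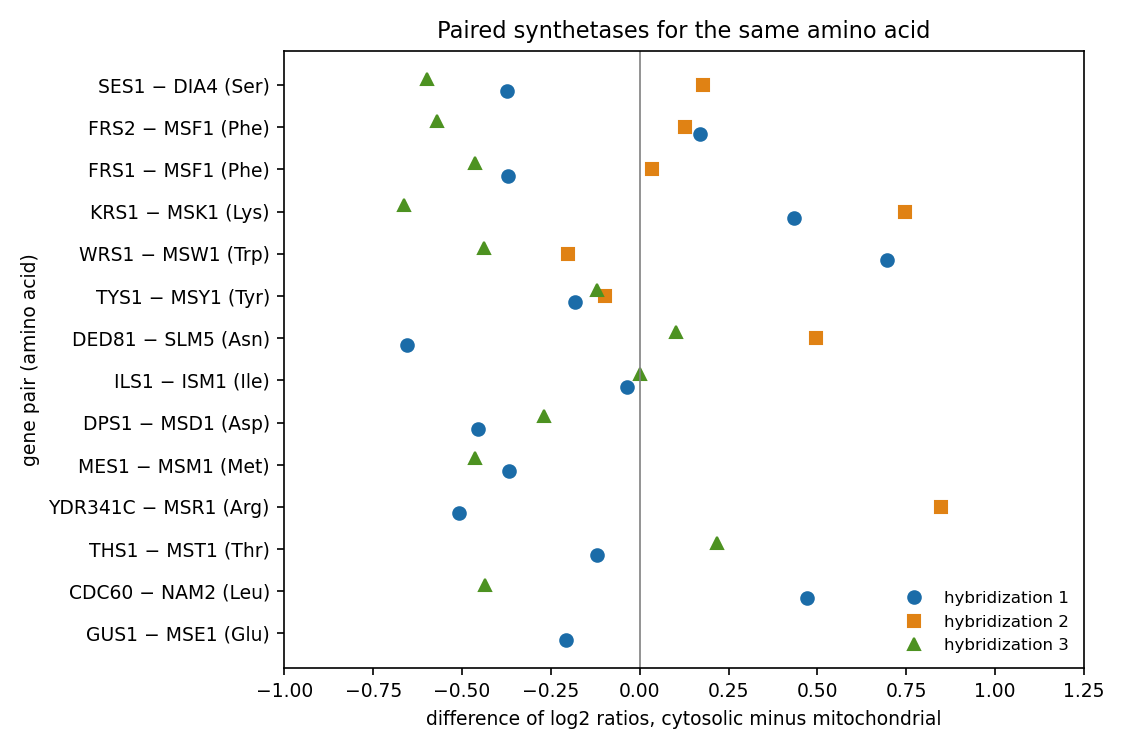
Difference of log2 ratios, cytosolic minus mitochondrial gene (x axis), for 14 pairs that charge the same amino acid (y axis), with a symbol for each hybridization that measured both genes. Only TYS1 and MSY1 keep the same sign among the 7 pairs with all 3 values, from -0.18 to -0.10, with unlike scans on hybridization 3.

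Other genes that make, charge or read tRNAs gave 0 calls after adjustment over all genes, in either direction, beside 2 of the 3642 tested (0.0549%). At so low a share, 0 calls do not set these genes apart. Of 4 further synthetase genes, 1 had a value on all 3 hybridizations: YHR020W, the prolyl-tRNA synthetase gene next to DED81 in gene order, had -0.36, 0.43 and -0.40. Replicate 2 was its highest array and its only positive one. The same held for ALA1, MES1, SES1, DED81, YDR341C and ARC1 of the cytosolic set and for MSW1 of the mitochondrial set. GRS2, the second glycyl-tRNA synthetase gene, had -0.18 on replicate 1 and 0.22 on replicate 3, and AIM10, for mitochondrial proline, had 0.71 and -0.74. CRS1, the last of the 4, had no value on any hybridization.

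Genes that sense uncharged tRNA were measured in part. GCN4 had -0.28, 0.62 and -0.0033, a mean of 0.11 ± 0.46 (limma, adjusted p = 0.965), and GCN2 had a value on replicate 1 alone (0.03). Gcn4 is controlled mainly through translation, which RNA ratios do not show. GCN20, whose product is needed to activate Gcn2, had -0.65, -0.31 and -0.29 and a mean of -0.42 ± 0.20, and YIH1, whose product holds Gcn2 back, had a mean of -0.26 ± 0.53. Over the 3 tested of 5 genes the median was -0.26.

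Among 21 tRNA maturation genes, 9 were tested, with a median of 0.11. The RNase P subunit gene POP5 had a mean of 0.40 ± 0.49 and the tRNA splicing endonuclease gene SEN34 one of -0.32 ± 0.48. Among 51 tRNA modification genes, 32 were tested, with a median of 0.09 and 11 means below 0. The 2 with the smallest p lay below 0: THG1, which adds a guanine to histidine tRNA, at -0.55 ± 0.27 (unadjusted p = 0.0407, limma adjusted p = 0.804), and the pseudouridine synthase gene PUS7 at -0.35 ± 0.08. Of 10 genes that act on mitochondrial or peptidyl-tRNAs, 6 were tested, with a median of -0.05, and PTH2, a peptidyl-tRNA hydrolase gene, had 0.30 ± 0.47. PET112, a subunit gene of the enzyme that makes mitochondrial glutaminyl-tRNA, had -0.24 ± 0.46. The cytosolic synthetases had 18 of 20 means below 0, the tRNA modification genes 11 of 32 and all genes tested 55.2%. These counts are given side by side without a test, and the contrast was not kept on every array. On replicate 3, 16 of 20 cytosolic and 24 of 32 modification genes lay below 0, beside 52.1% of all genes tested. Without replicate 1 the cytosolic count was 12 of 20.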

How the data were processed

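The deposited values were read as log2 ratios for single spots, with base 2 assumed. Per the labels, the authors applied LOWESS normalization to the spots of a scan that carried flag 0. The labels state no scanner, background correction or signal. LOWESS sets the average ratio to 0, so a shift shared by most transcripts would not appear. The 6912 spots were named through the platform annotation and the R64 gene table (5513 spots, 5365 genes); each of the 33 members had 1 spot and matched by current symbol, and UPS2, which has MSF1 among its synonyms, was kept out. No coordinates are given, since the files name no build, and no sequences were used here. Both scans of a hybridization were averaged, as were spots of a gene. The mean ratio of 3642 genes, those measured on every hybridization, was compared with 0 in limma 3.58.1 under R 4.3.3 (eBayes, two-sided, Benjamini-Hochberg, threshold 0.05), and the procedure was tested on simulated data. Scans held ratios for 1737 to 6104 spots. Members and lists were chosen with earlier results of these data known. The text names every member, the 2 genes of each other list with the smallest p, GCN2 and GCN4, and GRS2, AIM10 and CRS1 to complete a list. Alternatives were either scan alone, the genes tested, centring, scaling, robust moderation, the first spot of a gene, each replicate left out, membership of the cytosolic class, and spot position.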

Additional observations from a re-analysis of the deposited data

How the results depend on the processing

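The count of members past an adjusted p of 0.05 was 0 under all settings tried. Few genes of any kind were called: 2 of 3642 in the main setting, 0 without replicate 1 and 12 without replicate 3. A count of 0 members thus does not set the synthetases apart. Members at an unadjusted p under 0.05 numbered 1 (VAS1), and 0 with the high-power scan alone, with the low-power scan alone, over genes measured in all 6 scans, and with the median of neighbouring spot numbers taken out; VAS1 lacked a value in the low-power scan of replicate 2. With a replicate left out the count ran from 0 to 2, the latter without replicate 3 (VAS1 and MSK1). The share of all genes at this threshold, 6.15%, is known for the main setting only. The counts under other settings are therefore a description and cannot be set against all genes. The cytosolic median ran from -0.26 (without replicate 2) to -0.07 (without replicate 1), and the mitochondrial median from -0.20 (without replicate 3) to -0.02 (without replicate 1). The difference between the class medians of member means was -0.02. It ran from -0.13 (without replicate 2) to 0.08 (without replicate 3), so its sign turned. It stayed within its SD of 0.22 of the value reported, a limit that leaving out 1 of 3 hybridizations could hardly pass. Without ARC1 and the genes listed here as serving both compartments (ALA1, VAS1, GRS1 and HTS1) it was again -0.02. With neighbouring spots taken out 16 of 20 cytosolic and 3 of 6 mitochondrial means were below 0. Each ratio already pairs exposed with unexposed RNA on its array, and with a single group of samples no further replicate block could be fitted. Signal over background is unknown, so what brightness limits was not analysed here.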

Other observations

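The 32 tested tRNA modification genes had medians of 0.13, 0.26 and -0.34 on replicates 1, 2 and 3, and 24 of them lay below 0 on replicate 3 against 12 and 7 on the others. Their median on replicate 3 was lower than that of the cytosolic synthetases (-0.20), while on replicates 1 and 2 it was higher (-0.28 and 0.01 for the synthetases). The differences between these lists were not tested. The translation elongation factor gene TUF1 of the mitochondrion, named after its values were seen, had -0.40, 0.22 and 0.44.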
